A study of Mus musculus with 192 samples.

Results

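Exonic windows away from promoters are stretches of accessible chromatin that fell inside gene bodies on exons. They were taken from a list of accessible 500 bp windows of the mouse genome (build mm9). A window was a member if its midpoint lay in an exon of a protein-coding gene and more than 1 kb from every transcript start that GENCODE vM1 gives for protein-coding and long non-coding genes. Of 50000 windows, 1411 (2.82%) met the rule. Coding sequence of at least 1 transcript held 735 of them and untranslated exons held 557, of which 526 were 3' and 31 were 5'. The other 119 lay in exons of non-coding transcripts of protein-coding genes. Distance from starts chose the members, so the limit of 1 kb is no finding, and comparison sequence below had to meet the same limit.

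The list came from Pi-ATAC. Here fixed cells were transposed in bulk, then stained for proteins and index-sorted singly before their open chromatin was read. The cells were untreated 4T1 cells, 1 line of mouse breast cancer from which cells with the epithelial protein EpCAM were sorted, and splenocytes sorted for the leukocyte protein CD45, mixed in equal number. The splenocytes came from a spleen of 1 MMTV-PyMT mouse, a strain in which a mammary tumour virus promoter drives an oncogene, and this mouse had no tumour when it was killed. Titles give 96 cells to each group, whereas source names give 95 to 4T1 and 97 to splenocytes. Peak names were read as calls on both groups pooled, which the study's methods do not settle, so all values belong to 1 pooled sample. No window could be assigned to a cell group, a window present in few cells cannot be told apart from one weakly open in many, and no replicate spread exists. Intervals below are 95% intervals that cover counting error alone, and windows are not replicates of a condition.

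Most accessible regions are nucleosome-depleted sites at promoters, enhancers and insulators, where transcription factors bind. Exons can also hold such sites, so that the same bases serve both a protein or messenger RNA and a binding factor. CTCF is the factor of insulators and loop anchors, and AP-1 is the family of Fos and Jun dimers that opens many distal enhancers.

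The sequences that carry the word results are shown first. Each is 30 bases, on the gene's strand, 5' to 3', with the matched word in capitals. Windows were chosen for printing from genes named below where these held the word, and otherwise by how near the word lay to the midpoint. Coding exon windows with the CTCF word included those at Hey1, a Notch-induced repressor (chr3:8664683-8664712), Crh, the gene of corticotropin-releasing hormone (chr3:19594055-19594084), and Prune2 (chr19:17199043-17199072), at 73, 8 and 15 bp from the midpoint, and in all 3 the word was itself coding sequence.
Hey1: cttgcgagcGCCCCCTAGTGGcggcttggg
Crh: cctcggtggCCACCAGGGGGCgctggagag
Prune2: tcagattcaCCAGCAGGTGGCgacatgaaa
Untranslated windows with the CTCF word included those at Kctd6 (chr14:9048126-9048155, a 5' untranslated exon), Dcp1b, an mRNA decapping gene (chr6:119170478-119170507, 3'), and Zfp385c (chr11:100488393-100488422, 3').
Kctd6: gttctcacaGCCCTCTGCTGGcatgctgca
Dcp1b: gcttgataaCCACCAGGGGGCaatattacc
Zfp385c: tgcacccctGCCCCCTGGTGGttaagagag
The AP-1 word, TGANTCA, reads the same on both strands. In genes named below it was printed from the coding exon windows at Inadl (chr4:98354092-98354121), Col7a1 (chr9:108880227-108880256) and Crlf2 (chr5:109986701-109986730), of which it was coding sequence at Inadl, intronic at Col7a1 and untranslated or non-coding exon at Crlf2.
Inadl: atttattgccaTGATTCAggccaacggagt
Col7a1: gcccagtggaaTGACTCAtccctgcctgac
Crlf2: tagccaagggtcTGAGTCAgggaaatggct
In 3' untranslated exons the same word was shown by Pex26 (chr6:121144206-121144235), Itgal (chr7:134477554-134477583) and Tmem44 (chr16:30513914-30513943).
Pex26: gatatggcttcTGACTCAcccaggtggcca
Itgal: agatgccttctTGAGTCAgtgacagcattc
Tmem44: atgacccatctgTGACTCAgccgcagctgc

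Exons were denser in accessible windows than introns, per base. Coding sequence over 1 kb from starts (26.4 Mb) held 27.8 windows per Mb (25.8 to 29.9), 1.65 times the density of introns (1.53 to 1.77). Introns held 14753 windows at 16.9 per Mb and intergenic sequence 16851 at 10.4 per Mb. The density in 3' untranslated exons was 21.1 per Mb (19.4 to 23.0), 1.25 times that of introns (1.15 to 1.37). For 5' untranslated exons it was 55.5 per Mb (37.7 to 78.7), 3.28 times that of introns, on 31 windows in 0.559 Mb. Of those 31, 4 lay in a single exon of Tmbim1, which encodes a membrane protein of the BAX-inhibitor motif family. Exons of non-coding transcripts had 20.6 per Mb (17.1 to 24.6). Chromosome by chromosome, coding density exceeded intron density on 18 of 20 and untranslated density on 15 of 20, with ratios of 0.663 (X) to 2.13 (16) for coding exons. The ratio of X rests on 3 coding windows.

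**Figure D1:**
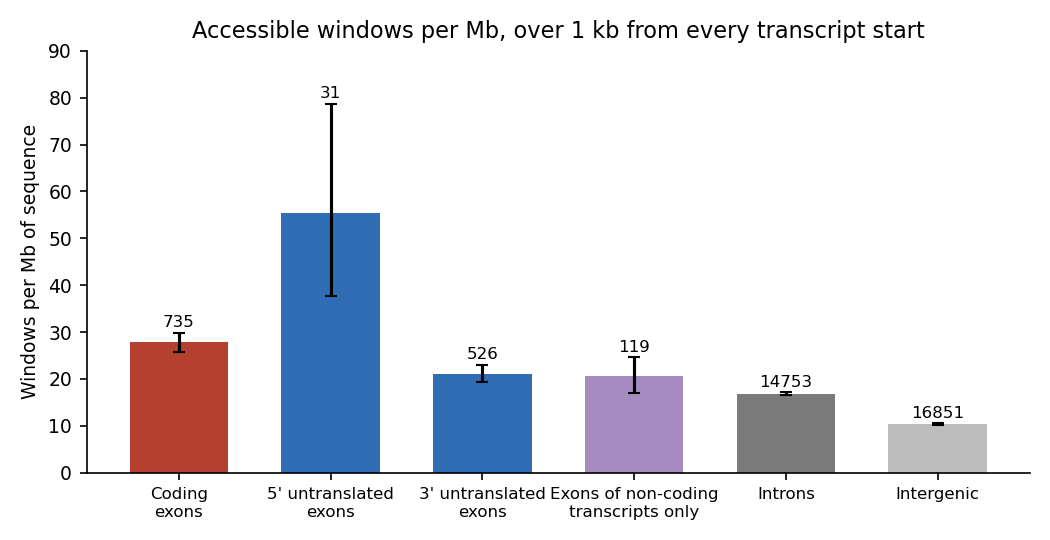
Windows per Mb of sequence (y axis) over 1 kb from every transcript start, by annotation class, with the number of windows above each bar and 95% Poisson intervals as error bars. Coding exons (27.8 per Mb) stand above introns (16.9) and intergenic sequence (10.4), and the bar of 5' untranslated exons rests on 31 windows.

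For coding exons, the comparison with introns turned round once base composition was taken into account. Accessible windows of every class were rich in GC, with a median of 54.4% in coding exon windows, 50.6% in untranslated ones and 49.0% in intronic ones. Comparison segments, the 500 bp pieces of the genome grid whose midpoint met the same rule and that touched no listed window, had medians of 48.2%, 43.6% and 42.2%. With the intron rate taken at the same GC content in bins of 5%, coding exons held 0.646 times the windows that the intron rate would give (0.5999 to 0.694). Untranslated exons held 0.921 times (0.846 to 1.001). With distance from starts matched instead, the ratios were 1.30 (1.21 to 1.40) and 1.08 (0.989 to 1.17), and with both matched they were 0.545 (0.506 to 0.586) and 0.832 (0.764 to 0.904). Coding exons were thus denser in windows than introns per base and at a like distance from starts, and sparser than introns of the same GC content. These alternatives were chosen after the data were seen, and the part of mapping and amplification in the relation with GC was not tested.

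The reversal came from the GC-rich bins. Between 40% and 45% GC, coding exons had 5.82 windows per 1000 segments against 4.65 in introns, a ratio of 1.25 (0.944 to 1.63). Between 55% and 60% they had 23.8 against 47.1, a ratio of 0.505 (0.434 to 0.586). Untranslated exons gave 16.0 against 14.0 per 1000 segments between 45% and 50% GC, with a ratio of 1.15 (0.980 to 1.34), and 31.1 against 47.1 between 55% and 60%, with a ratio of 0.662 (0.531 to 0.816). Intron and exon rates thus rose together with GC, from under 1 window per 1000 segments in the bin from 30% to 35%, and parted above 50% for coding exons.

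**Figure D2:**
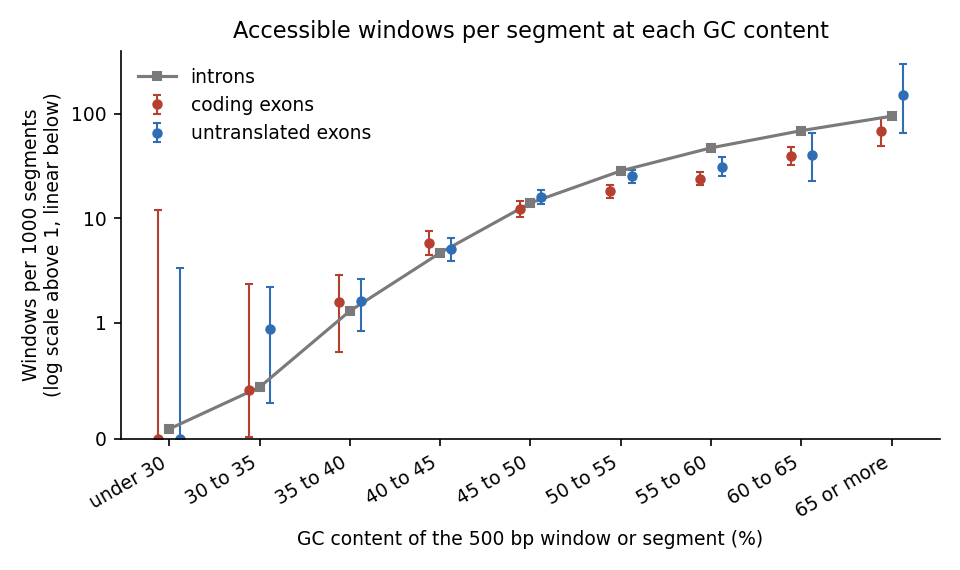
Accessible windows per 1000 grid segments (y axis, logarithmic above 1 and linear below) against GC content in bins of 5% (x axis) for coding exons, untranslated exons (points with 95% Poisson intervals) and introns (line). Coding exons lie below the intron line from 50% to 65% GC (23.8 against 47.1 between 55% and 60%) and close to it at lower GC.

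Coding exon windows sat mostly on short internal exons with flanking intron sequence. Internal exons held 526 of 735 (71.6%, 68.2 to 74.7), last exons 170, first exons 20 and single-exon genes 19. Among coding exon segments, 77.0% were in internal exons and 0.893% in first exons, against 2.72% (1.77 to 4.17) of windows. The exon at the midpoint had a median length of 232 bp, against 193 bp in segments, and a median of 270 of a window's 500 bp was exonic. The midpoint was a median of 5.69 kb from the nearest start (quartiles 2.15 and 16.1 kb), and the farthest, in the receptor tyrosine kinase gene Alk, was 398 kb away. Midpoints 1 to 2 kb from a start made up 22.4% of coding windows and 11.9% of segments, a difference of 10.6 percentage points (7.68 to 13.7).

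No gene had more than 3 coding exon windows. Of 678 genes with a coding exon window (3.03% of 22350 protein-coding genes), 625 had 1, 49 had 2 and 4 had 3. Those 4 were Col7a1, the collagen of anchoring fibrils, Inadl, a scaffold of tight junctions, Odz4, a teneurin, and Tchh, trichohyalin of the hair follicle. The Col7a1 windows lay at exons 28, 40 and 98 of 118 (chr9:108864666-108865165, chr9:108867278-108867777 and chr9:108879943-108880442), on exons of 36, 60 and 45 bp. Neighbouring short exons raised the coding part of these windows to 233, 159 and 141 bp. The 3 windows therefore mixed several exons and the introns between them, and 1 of them held the AP-1 word printed above.

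Inadl and Odz4 had their coding windows far apart along long genes. At Inadl they lay 36.0, 101 and 292 kb from the start of the transcript, at exons 11, 20 and 41 of 44. At Odz4 they lay 342, 483 and 524 kb from it, at exons 5, 7 and 10 of 33. In contrast, the 3 windows of Tchh lay side by side in 1 exon of 5685 bp (chr3:93249945-93250444, chr3:93250604-93251103 and chr3:93251015-93251514). The whole of each Tchh window was coding sequence, with CpG ratios (observed over expected CpG) of 0.960, 0.884 and 0.897 against a median of 0.342 over coding windows.

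Genes with 2 coding windows included Ciita, the master regulator of MHC class II genes, Golga3, a golgin, Gyltl1b, a glycosyltransferase, and Zyx, the focal adhesion protein zyxin. Each of these 4 had 1 further exonic window, untranslated at Ciita, Golga3 and Zyx and in a non-coding transcript at Gyltl1b. The Zyx coding windows (chr6:42301226-42301725 and chr6:42301694-42302193) overlapped in exon 5 of 10, 1.65 and 2.12 kb from the start of the transcript. The uncharacterised genes 2810030E01Rik and A830007P12Rik, of 2 exons each, had 2 coding windows in their long last exons of 4367 and 2960 bp.

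Untranslated exon windows were almost all in last exons. Last exons held 500 of 557 (89.8%, 87.0 to 92.0), against 94.6% of untranslated segments, and the exon at the midpoint was long, with a median of 2276 bp. In 3' untranslated exons, the midpoint was a median of 923 bp downstream of the stop codon and 848 bp upstream of the transcript end. Segments of 3' untranslated exons had medians of 947 and 847 bp. Windows were therefore spread along 3' untranslated exons about as the sequence itself, with quartiles of 310 and 1857 bp from the stop codon against 380 and 1949 bp in segments. Midpoints 1 to 2 kb from a start made up 15.6% of untranslated windows and 8.46% of segments, a difference of 7.17 percentage points (4.38 to 10.4).

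The genes with most untranslated windows held them close together. Of 504 such genes (2.26% of protein-coding genes), 460 had 1 window and 3 had 4, namely Btg1, an antiproliferative gene, Pex26, a peroxisome biogenesis gene, and Tmbim1. The 4 Pex26 windows followed each other over chr6:121143978-121145719 in a last exon of 2681 bp, between 598 and 1840 bp past the stop codon. Of the 4, 3 held the AP-1 word, and these 3 overlapped and were summits of 1 call. At Btg1, 4 windows lay 2191 to 3686 bp past the stop codon in a last exon of 4538 bp. A further window in the coding part of that exon was 1 summit of a call with 3 listed summits. The Tmbim1 windows lay in a first exon of 9164 bp, annotated as 5' untranslated, 5.18 to 7.36 kb from the start of that transcript and 1.31 to 3.48 kb from the nearest start of any transcript.

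Another 3 genes had 3 untranslated windows each, namely Cstf1, which encodes a subunit of the 3' end cleavage machinery, Pygb, the brain form of glycogen phosphorylase, and Tmem44. The Cstf1 windows spanned its last exon of 2089 bp, from 15 to 1526 bp past the stop codon. The Pygb windows lay 306, 717 and 1106 bp past it, in a last exon of 1397 bp. Wwc1, the Hippo pathway scaffold KIBRA, had 2 untranslated windows and 1 coding window in its last exon, all summits of 1 call with 4 listed summits. The uncharacterised genes 1700066B19Rik, 3930402G23Rik and 8430406I07Rik had 2 each.

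The words of AP-1, of BACH and NRF2, of CTCF and of SP and KLF were more frequent in exonic windows than in exonic sequence without a window. This held in both classes and at the same GC, with intervals above the segment share. Of 17 words searched on both strands, AP-1 was in 154 of 735 coding windows (21.0%, 18.2 to 24.0) and in 12.4% of coding segments, a difference of 8.51 percentage points (5.71 to 11.6). Among untranslated windows it was in 154 of 557 (27.6%, 24.1 to 31.5), against 13.2% of segments, a difference of 14.5 points (10.9 to 18.4). At the GC content of the windows, the segment shares were 10.0% and 11.6%. AP-1 words were thus more frequent in exonic windows by a margin that base composition did not reduce.

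The AP-1 share was nonetheless lower in exons than in introns. Intronic windows held the word in 32.1% of cases, and coding windows differed from them by -11.1 points (-13.99 to -7.92), or by -8.45 points (-11.2 to -5.37) at the same GC. Untranslated windows differed from intronic ones by -4.41 points (-8.04 to -0.477), a difference whose interval included 0 without chromosomes 1 and 10 to 13 and at start distances of 500 bp or 2.5 kb. Coding and untranslated windows differed from each other by -6.70 points (-11.5 to -1.99). The word GCTGAGTCA of BACH and NRF2, which contains the AP-1 word, was in 10 coding windows (1.36%, 0.741 to 2.49) and in 3.05% of intronic ones, a difference of -1.69 points (-2.37 to -0.533). In untranslated windows it was found 15 times (2.69%, 1.64 to 4.39). Segments held it in 0.568% (coding) and 0.591% (untranslated) of cases, or 0.597% and 0.712% at the same GC. Inside coding windows, 67 of 174 AP-1 words (38.5%, 31.6 to 45.9) lay in coding sequence, which made up 52.6% of their bases. In coding segments the values were 42.3% of words and 48.9% of bases, so AP-1 words leaned to the non-coding part of both, and the difference between them was not tested.

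Of the 17 words, that of CTCF had the largest ratio to segments, in both exon classes and also in introns, where the ratio was 6.84. It was in 24 coding windows (3.27%, 2.20 to 4.81) against 0.378% of segments, 8.63 times as often, and in 16 untranslated windows (2.87%, 1.78 to 4.62) against 0.410%, 7.01 times as often. Segments at the GC content of the windows held it in 0.518% and 0.671% of cases. Its share was also higher in coding than in intronic windows (1.75%), by 1.52 points (0.432 to 3.08), whereas for untranslated windows the lower bound of the difference was 0.00423 and several alternatives put it below 0. Intergenic windows held the CTCF word in 2.37% of cases, a share inside the intervals of both exon classes. In coding windows, 12 of 24 CTCF words lay in coding sequence. Nearest words were within 50 bp of the midpoint in 4 of the 24 coding (16.7%, 6.68 to 35.9), 7 of the 16 untranslated (43.8%, 23.1 to 66.8) and 30.6% of intronic windows with the word.

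AP-1 words had no visible preference for the midpoint that set exons apart. The nearest word was within 50 bp in 27.3% (20.9 to 34.8) of the coding, 29.2% (22.6 to 36.8) of the untranslated and 27.7% of the intronic windows that held it, and the median distances were 98, 91 and 94.5 bp.

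For the SP and KLF word and for most other words the excess over segments shrank at the same GC content. The word GGGCGGG of SP and KLF factors was in 10.6% of coding windows (8.59 to 13.1) and 10.8% of untranslated windows (8.46 to 13.6), against 4.53% and 3.59% of segments, but segments at the same GC held it in 8.40% and 7.12%, just below both intervals. The E-box CAGGTG was in 47.6% of coding windows (44.0 to 51.2), 39.0% of segments and 47.5% of segments at the same GC. Those letters also arise where an exon that ends in CAG meets an intron, and 54 of 490 such words in coding windows (11.0%, 8.55 to 14.1) sat across an exon's 3' end, as did 11.0% in coding segments. Without them, 43.5% of coding windows (40.0 to 47.2) and 35.6% of segments held the word. The words CCGGAAG of ETS factors (6.39%, 4.84 to 8.40, against 6.12% of segments at the same GC), GGGNNTTCC of NF-kB (9.25% against 8.64%) and CCCNNGGGA of EBF (12.0% against 11.2%) in coding windows also lay near the GC-matched share. That of IRF factors, GAAANNGAA, was less frequent in coding windows than in segments (12.1% against 15.6%) and near them at the same GC (11.2%).

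Words of the remaining factors had shares whose intervals mostly held the segment value. In coding windows, RUNX (TGTGGTT) was in 10.6%, TEAD (CATTCCA) in 7.07%, SPI1 (GAGGAAGT) in 4.22% and GRHL (AACNGGTT) in 2.72%, against 9.39%, 8.21%, 3.32% and 3.67% of segments. At the same GC, segments held the RUNX word in 8.21%, just below its interval in coding windows (8.59 to 13.1). In untranslated windows RUNX was in 11.7% (9.26 to 14.6), against 10.3% of segments at the same GC. The GC-matched shares of TEAD, SPI1 and GRHL stayed inside their intervals in coding windows. The hypoxia response word TACGTG was in 8.03% of coding windows (6.27 to 10.2) against 6.25% of segments, and in 6.10% of untranslated windows against 5.33%. CRE (TGACGTCA) was in 5 coding and 4 untranslated windows, NFI in 2 and 5, and NRF1 (GCGCATGCG) in 2 and 0, counts too low to compare.

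**Figure D3:**
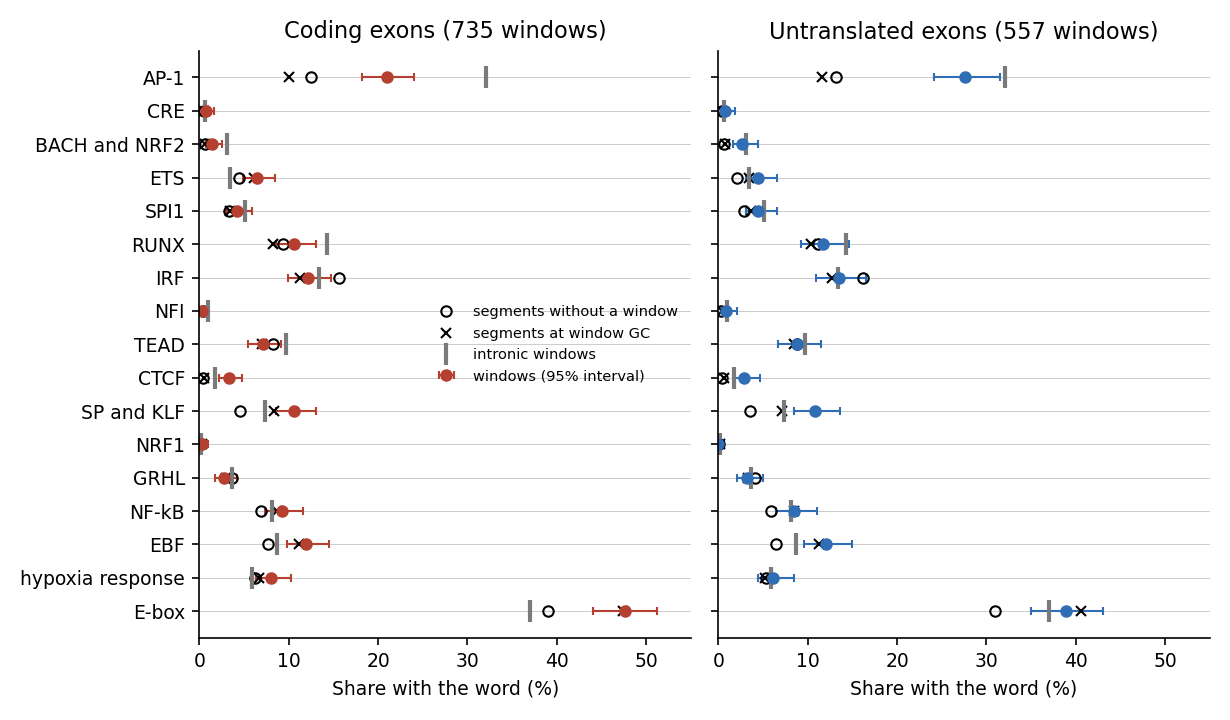
Share of windows with each of 17 consensus words (x axis, %) in coding (left) and untranslated exons (right), as filled points with 95% Wilson intervals, beside exonic segments without a window (open circles), segments reweighted to the GC content of the windows (crosses) and intronic windows (grey bars). Intervals of AP-1, BACH and NRF2, CTCF, and SP and KLF lie above both segment marks in the 2 panels. The E-box point of coding exons (47.6%) meets its cross (47.5%).

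Coding exons held more CpG-rich windows than untranslated exons. A CpG ratio over 0.6 was found in 113 coding windows (15.4%, 13.0 to 18.2) against 4.19% of coding segments, and in 33 untranslated windows (5.92%, 4.25 to 8.204) against 1.48%. The share in intronic windows was 2.44%, also above that of intronic segments (0.542%). In intergenic windows it was 4.93%, inside the interval of untranslated windows, and in windows within 1 kb of a start 64.1%. Between 1 and 2 kb from a start, 27.3% of coding windows (21.1 to 34.5) were CpG-rich against 7.51% of segments. Over 10 kb away they were 7.87% (5.16 to 11.8) against 3.37%. For untranslated windows the shares were 11.5% (6.37 to 19.9) against 2.88% near starts and 3.76% (1.92 to 7.24) against 1.41% over 10 kb away. CpG-rich windows thus became fewer with distance in both classes and stayed above the segments in each distance range.

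**Figure D4:**
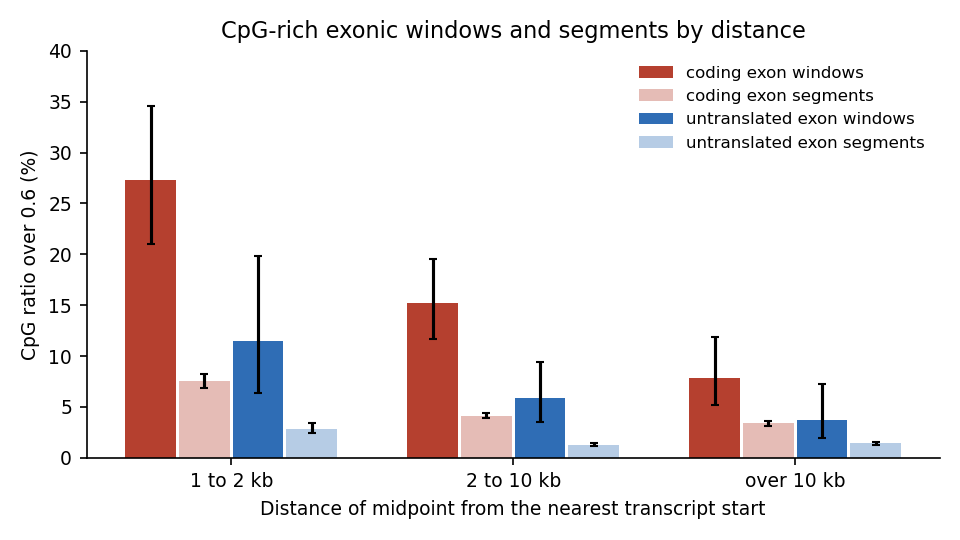
Share of exonic windows and segments with a CpG ratio over 0.6 (y axis, %) by distance from the nearest transcript start (x axis), with 95% Wilson intervals. Coding windows fall from 27.3% at 1 to 2 kb to 7.87% over 10 kb and lie above the segments at each distance.

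Coding exon windows came from calls with several summits less often than intronic windows. Such calls gave 44 coding windows (5.99%, 4.49 to 7.94), 53 untranslated (9.52%, 7.35 to 12.2) and 9.34% of intronic ones. The difference between coding and intronic windows was -3.35 percentage points (-4.93 to -1.35), or -8.19 points (-9.69 to -6.24) at the same GC, but its interval included 0 when overlapping windows were joined or windows down to 500 bp from starts were taken in. Untranslated and intronic windows differed by 0.175 points (-2.04 to 2.94). A promoter summit belonged to the same call in 6 of the 44 coding and 8 of the 53 untranslated windows. Another window lay within 5 kb of 50.7% (47.1 to 54.4) of coding, 55.3% (51.2 to 59.4) of untranslated and 51.5% of intronic windows, and the intervals of both differences from introns included 0.

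The calls with most summits lay at Dusp6 and Vim. A call of 6 summits reached a coding exon of Dusp6, a phosphatase that inactivates ERK (chr10:98726971-98727470, 1.36 kb from the start), and another reached exon 2 of Vim, the gene of vimentin (chr2:13496969-13497468, 1.27 kb). Calls of 4 gave 2 coding windows at Crlf2, a cytokine receptor subunit, within 2 kb of its start, and 1 at exon 4 of 19 of Mertk, a receptor tyrosine kinase, 39.3 kb from the start of its transcript. No untranslated window was in a call with more than 4 listed summits, and 7 were in calls with 4. Those named by the rule were at Xirp1, an actin-binding gene of striated muscle, B430305J03Rik, Wwc1 and Tnfrsf12a, the receptor of TWEAK.

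Genes with exonic windows more often had a promoter window too. Of all protein-coding genes, 47.3% had a window within 1 kb of a start, against 64.9% (61.2 to 68.4) of those with a coding exon window and 72.8% (68.8 to 76.5) of those with an untranslated one. An exonic window of any kind was found in 1226 genes (5.49%), and 49 genes had both a coding and an untranslated window.

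Gene lists were read against those background shares, with intervals not adjusted over the 15 lists. Markers of both cell groups were among the genes with an exonic window. Ptprc, which encodes CD45, had 1 coding window at exon 6 of the 46 annotated in its transcript (chr1:140014206-140014705), 57.4 kb from its start, with 141 of 500 bp coding. Epcam had no exonic window. Of 25 pan-leukocyte genes, 2 had coding windows, Ptprc and Lcp1, the actin bundler plastin. Another 2 had 3' untranslated windows, Itgal, an integrin of leukocytes, and Runx1. Together they made 16.0% (6.403 to 34.7), against 5.49% of all genes. Of 35 epithelial genes, 1 had a coding window and 1 an untranslated one, shares of 2.86% each and near the background.

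B cell genes and collagen and laminin genes had the most members with an exonic window. Of 21 B cell genes, 6 had one (28.6%, 13.8 to 50.0, against 5.49% of all genes), 4 of them coding. Coding windows were at Ciita, Cd22, an inhibitory receptor of B cells, Cd74, the invariant chain, and H2-Ab1, an MHC class II chain, and untranslated windows at Ciita and the B cell factors Spib and Pou2af1. In the genes of that list coding windows came to 174 per Mb of coding sequence (56.6 to 407), on 5 windows, against 27.8 over all genes. All but the Cd22 window lay at genes of the MHC class II pathway, namely Ciita, Cd74 and H2-Ab1. Of 22 myeloid genes, 1 had a coding window, Sfpi1, which encodes PU.1, and of 22 T cell genes, 1 had an untranslated window, shares of 4.55% each (0.807 to 21.8), near the 5.49% of all genes.

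Of 25 collagen and laminin genes, 6 had an exonic window (24.0%, 11.5 to 43.4), and all 6 had a coding one. Besides Col7a1 they included Lamb1, a laminin chain gene with 2 coding windows, and Lamb2, Hspg2 (perlecan) and Col12a1 with 1 each. The 10 coding windows of the list came to 78.4 per Mb of coding sequence (37.6 to 144) in the genes of that list, against 27.8 over all genes. Neither this density nor that of the B cell list was compared at the same GC content or with introns of the same genes. None of the 25 had an untranslated window, where the share over all genes was 2.26%. Their 26.4 kb of untranslated sequence allowed up to 140 windows per Mb, against 21.9 over all genes.

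Lists of transcription factor genes varied in their share of genes with an exonic window, against 5.49% of all genes. Of 12 AP-1 factor genes, Fosb and Junb had coding windows and Jun a 3' untranslated one, at 2.67, 1.05 and 1.41 kb from starts, a share of 25.0% (8.89 to 53.2). Of 20 NFI, TEAD, RUNX and ETS genes none had a coding window, where the share over all genes was 3.03%. Their coding sequence allowed up to 145.5 windows per Mb, against 27.8 over all genes. A 3' untranslated window was found at 4 of the 20, namely Runx1, Runx2, Etv6 and Elf4, at 10.0, 65.4, 21.6 and 41.9 kb from starts. Ets2 had a window in an exon of a non-coding transcript, which made 5 of 20 (25.0%, 11.2 to 46.9). Of 48 developmental factor genes, En2 had 2 coding windows and Foxc1 and Irx1 had 1 each (3 of 48, 6.25%), and of 39 Hox genes, Hoxa10 had a 3' and Hoxc9 a 5' untranslated window (2 of 39, 5.13%), both near the share of all genes.

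The remaining lists had shares of 0 to 13.9%. Among 41 Notch, Wnt and TGF-beta genes, Hey1 and Wnt10a had coding windows, Tgfbr2 had 2 untranslated windows and Notch2 had 1, which made 4 of 41 (9.76%, 3.86 to 22.6). Among 36 chromatin regulator genes, Kdm6b, Mll2 and Brd2 had coding windows and Setd1b had one in a non-coding transcript, and 5 of the 36 (13.9%, 6.08 to 28.7) had an exonic window of any kind. Of 18 hypoxia target genes 1, the adrenomedullin gene Adm, had a window (3' untranslated, 1.69 kb from its start). That share of 5.56% (0.9875 to 25.8) was near the 5.49% of all genes. None of 20 interferon and antigen presentation genes and none of 25 hepatocyte and neuronal genes had an exonic window, counts that allow shares of up to 16.1% and 13.3% by the Wilson interval. Ciita, Cd74 and H2-Ab1, genes of MHC class II antigen presentation with coding windows, were counted in the B cell list instead. The absence in the first of these lists therefore does not extend to all antigen presentation genes.

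**Figure D5:**
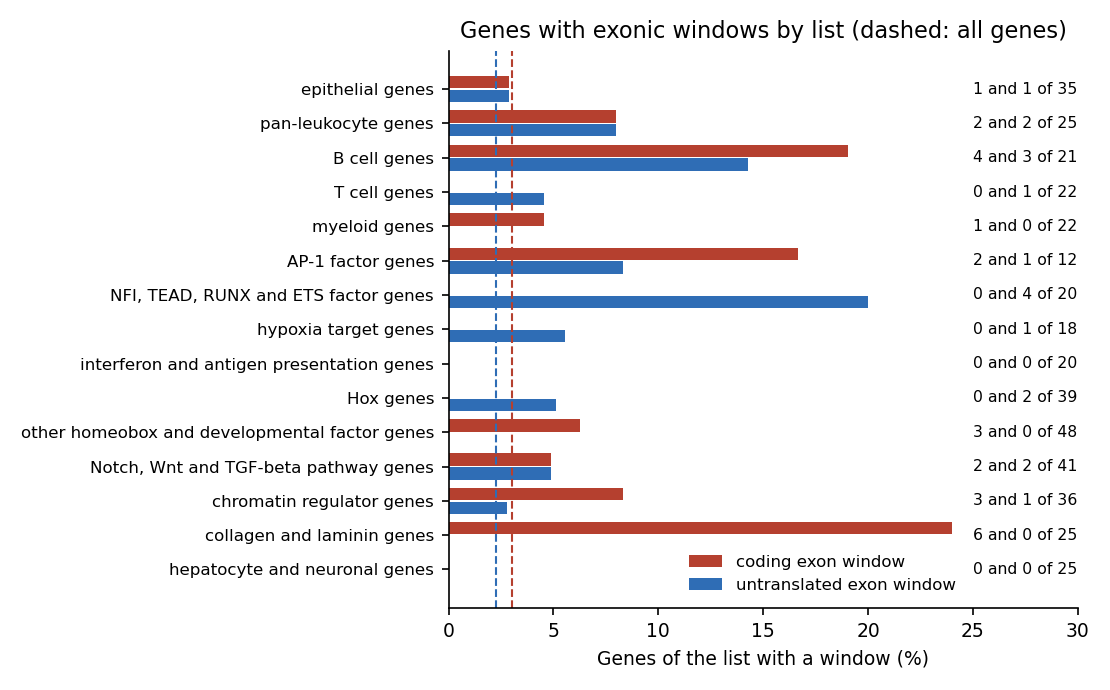
Share of the genes in each of 15 lists (x axis, %) with a coding exon window (red) or an untranslated exon window (blue), with the counts at the right and the shares over all protein-coding genes as dashed lines (3.03% and 2.26%). B cell genes (4 and 3 of 21) and collagen and laminin genes (6 and 0 of 25) lie farthest from the dashed lines together with the factor lists.

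The 119 windows in exons of non-coding transcripts were close to untranslated ones in composition. Their median GC content was 50.4% and their median CpG ratio 0.235, against 50.6% and 0.234 (untranslated). The AP-1 word was in 39 of them (32.8%, 25.0 to 41.6, against 14.0% of segments) and the CTCF word in 3.

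At the limit of the rule, the members nearest to a start were at Nudt7 (1001 bp), Rps20 (1004 bp) and Tbr1 (1008 bp), and the nearest exonic windows left out lay 1000, 996 and 994 bp from one.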

How the data were processed

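Samples were single cells of 4T1 (96 by title) and splenocytes (96), whose pooled window list was analysed. Per the study's methods, the authors aligned reads with Bowtie2 2.1.0 to mm9, dropped duplicates with Picard 1.79 along with mitochondrial and poorly aligned reads, called summits on aggregated cells with MACS2 (version not given in the sources used here) and kept the 500 bp windows with the lowest q-values. The deposited values used were start and end positions, with no score or count per window, so depth and signal were not analysed here.

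Midpoints were assigned to GENCODE vM1 exons, coding before untranslated (73 midpoints were both). The grid of 500 bp segments, every 20th for introns and then weighted to match, gave the comparison sequence. Segments with unknown bases or touching a window were left out. Shares have Wilson intervals, differences Newcombe intervals and densities exact Poisson intervals, at 95% (scipy 1.17.1, numpy 2.4.6, pandas 2.3.3, pysam 0.24.0). Density ratios have exact conditional intervals. Intervals of differences at the same GC have Wilson bounds of the windows alone and treat the comparison value as fixed. Ratios to an intron rate matched over all bins of GC or distance likewise treat the expected count as fixed. Scripts were tested on simulated data. CTCF and NFI words were consensus words with ambiguous letters. No p-value was computed, since 1 pooled sample allows no test between groups.

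The members, 15 gene lists and 17 words were chosen with earlier results of these data known. Ca9 and Nlrc5 had no match. Genes named are the 10 with most coding and the 10 with most untranslated windows, up to 3 of each list, those of the windows with most summits, the genes of the printed sequences (word nearest the midpoint, named genes first) and those nearest the distance limit. Further list members, and Alk, were named after their values were seen. Some genes that fall under these rules are left unreported here. Overlapping genes shared 12 windows, each given to 1 gene. Alternatives changed the distance, transcripts, class precedence, overlap, joining of windows and chromosomes.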

Additional observations from a re-analysis of the deposited data

How the results depend on the processing

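Of 209 values under an alternative, for 27 results, 170 kept their direction and stayed within the limits set for each, 22 moved beyond them, 9 lost an interval that excluded 0 and 8 changed direction. For differences the limits covered the sign and whether the interval excluded 0, not the size. The AP-1 difference of coding windows from segments (8.51 points) thus counted as kept at 4.19 points with 250 bp of exon. It also counted as kept at 14.2 points over 10 kb from starts. Assigning windows by at least 250 bp of exon of the class left 901 exonic and 364 coding windows and 315 genes with a coding window. It turned the density ratio of coding exons to introns to 0.788, because the count of bases was not restricted in the same way, and counted per segment under the same rule the ratio was 1.90. It gave coding windows a neighbour share of 55.5%, a median CpG ratio of 0.426 and an AP-1 share of 15.4%. With the intron rate at the same GC the ratios became 0.646 for coding and 0.921 for untranslated exons, at the same distance 1.30 and 1.08, and at both 0.545 and 0.832.

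With windows over 500 bp from starts, coding windows had a multi-summit share of 10.3%, a neighbour share of 57.1%, a median CpG ratio of 0.380, an AP-1 share of 17.8% and a multi-summit difference from introns of -0.598 points. Untranslated windows had 12.9%, 59.6% and 0.255 for the first 3, and differences from introns of -3.20 (AP-1) and 0.951 points (CTCF). Over 2.5 kb, coding windows had a neighbour share of 40.2% and a median CpG ratio of 0.322, and untranslated windows differed from introns by -0.0956 (multi-summit), -4.39 (AP-1) and 0.968 points (CTCF). Joining overlapping windows (44668 regions) gave multi-summit shares of 4.05% and 5.78%, neighbour shares of 45.5% and 49.7% and a coding multi-summit difference of -1.52 points. Without chromosomes 1 and 10 to 13, where fewer numbered calls were listed, untranslated windows differed from introns by -3.32 (AP-1) and 1.12 points (CTCF). The untranslated multi-summit difference was -0.293 points with untranslated taking precedence and -1.001 with introns at the same GC, where the CTCF difference was 1.02. The cause was not tested except where given.

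The list gives presence alone, so a missing window is not closed chromatin, and mappability of segments was not analysed here. AP-1 and CTCF differences from segments kept their direction, with intervals excluding 0, under every alternative run, including those over 10 kb from starts and at the same GC. GC and segment alternatives were chosen after seeing the data. No paired analysis was possible because the cells were pooled into 1 list.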
